A study of Homo sapiens with 8 samples.

Results

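The Hippo effectors YAP1 and WWTR1 (the protein TAZ), their DNA-binding partner TEAD1 and genes known as their targets or regulators were examined in melanoma cells with and without forced expression of CD10, a cell-surface peptidase. The set held 10 genes, CCN1, CCN2, ANKRD1, AMOTL2, AJUBA, LATS2, TEAD1, YAP1, WWTR1 and WWC3, and every probe whose annotated symbol, current or older, named one of them was taken. This gave 14 of the 47322 probes on the array and 10 of the 20046 genes with a probe. A375 is an established human melanoma line. CD10-A375 cells were A375 cells stably transfected with the vector pCXN2.1 (+) carrying the open reading frame of CD10, selected with G418 and sorted for CD10 on their surface. Mock-A375 cells, labelled as mock transgenic, were the control. Total RNA from 4 cultures per group was measured on Illumina bead arrays, 1 array per culture. Whether the 4 cultures of a group came from separately transfected populations is not stated in what was used here, and the p-values may cover only variation among cultures of 1 population.

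In the Hippo pathway the kinases STK3 and STK4 with the scaffold SAV1 activate LATS1 and LATS2, which phosphorylate YAP and TAZ and keep them in the cytoplasm. Unphosphorylated YAP and TAZ enter the nucleus and bind TEAD proteins on DNA, and CCN1, CCN2 and ANKRD1 are the target genes most often read as a measure of this activity. An mRNA level does not show the phosphorylation or the location of YAP and TAZ.

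The 4 arrays of a group resembled each other closely, with correlations of 0.991 to 0.993 across tested probes within groups and 0.962 to 0.967 between groups, and 15930 to 16937 probes were detected per array. A probe was called detected at a detection p of 0.01 or less, and the 19550 probes that reached it on 1 or more arrays entered the test. The 4 probes of MME, the gene of CD10, were detected on 0 of 8 arrays, with a lowest detection p of 0.114. The plasmid held the open reading frame only, and where these probes lie in the transcript was not determined, so they did not check the labels. Of the 9 melanocyte lineage markers with a probe, SOX10, MITF, S100A1 and MIA were detected. PMEL, MLANA, TYR and TYRP1, which mark pigmented melanocytes, and S100B were not detected on any array. The summed signal of these 9 markers was 8713 to 9692 in CD10-A375 and 5199 to 5833 in mock-A375.

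Sequence upstream of the members is shown first because TEAD proteins bind a short motif, spelled GGAATG on the strand read or CATTCC on the other, with no overlap between the 2 spellings. RefSeq promoters on GRCh38.p14 were found for 8 of the 10 genes, and the 250 bases before each transcription start were searched on both strands. The following windows hold the most matches, for CCN2 and ANKRD1, and the match on the other strand, for AMOTL2. Each is read 5′ to 3′ along the gene, and capitals mark the matches.
CCN2 promoter, chr6:131951373-131951622, minus strand: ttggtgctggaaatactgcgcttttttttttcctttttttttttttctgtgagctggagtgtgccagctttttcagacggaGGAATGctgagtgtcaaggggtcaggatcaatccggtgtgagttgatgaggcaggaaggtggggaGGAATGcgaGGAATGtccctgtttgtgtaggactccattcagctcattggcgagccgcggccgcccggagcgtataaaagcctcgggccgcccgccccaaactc
ANKRD1 promoter, chr10:90921088-90921337, minus strand: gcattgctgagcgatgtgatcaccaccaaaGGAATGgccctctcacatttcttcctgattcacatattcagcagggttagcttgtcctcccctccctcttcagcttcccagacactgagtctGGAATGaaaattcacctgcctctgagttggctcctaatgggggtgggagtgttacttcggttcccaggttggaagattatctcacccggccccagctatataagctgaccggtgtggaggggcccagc
AMOTL2 promoter, chr3:134374448-134374697, minus strand: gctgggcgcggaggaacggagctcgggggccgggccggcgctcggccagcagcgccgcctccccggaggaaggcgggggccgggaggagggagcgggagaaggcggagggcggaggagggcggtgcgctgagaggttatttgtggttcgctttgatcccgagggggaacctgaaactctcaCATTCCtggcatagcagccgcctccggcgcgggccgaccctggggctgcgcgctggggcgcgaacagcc
The CCN2 window held 3 matches, starting 169, 104 and 95 bases before the start site. Of 35116 RefSeq promoters searched in windows of the same length, 29 (0.0826%) held at least 3. ANKRD1 had 2 matches, 220 and 128 bases before its start, a number reached by 330 promoters (0.94%). AMOTL2, AJUBA and YAP1 had 1 match each, and 4175 promoters (11.9%) held at least 1. In AMOTL2 and AJUBA this match lay before 1 of the listed start sites only. The windows of LATS2, WWTR1 and WWC3 did not contain these letters, which says nothing of binding elsewhere. A match is a description of sequence, and binding was not measured.

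**Figure D1:**
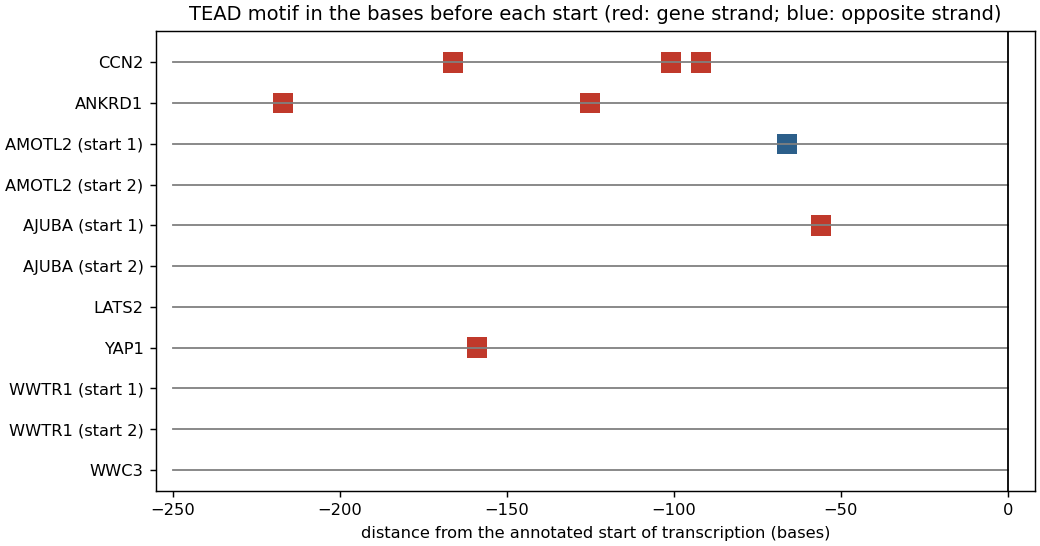
Places of the TEAD motif (marks) in the 250 bases before the transcription start (0, right) of each member with a RefSeq promoter, 1 line per start site, with the x axis in bases from the start. CCN2 shows 3 marks, 2 of them close together, ANKRD1 shows 2, and LATS2, WWTR1 and WWC3 show none.

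CCN2, which encodes a secreted matricellular protein also known as CTGF, showed the largest difference of the set and was lower in CD10-A375 at both of its probes. The brighter probe (ILMN_1699829) read 320.1, 399.7, 304.8 and 298.5 units of background-subtracted signal on the 4 CD10-A375 arrays and 1269.3, 1247.1, 1453.8 and 1349.0 units on the 4 mock-A375 arrays. Every CD10-A375 array lay far below every mock-A375 array, and the arrays within each group lay close together. After background correction and quantile normalization the log2 level was 8.46 ± 0.06 (SD, n = 4) in CD10-A375 and 10.36 ± 0.07 (SD, n = 4) in mock-A375. The log2 fold change was -1.91 (SE 0.07, 95% interval -2.05 to -1.76), which is 3.75-fold lower, with an adjusted p of 2.38e-13 by limma over all tested probes. Among the 11303 genes tested by their brightest probe, this ranked CCN2 in place 78 of decreases. The study had already chosen this gene, as CTGF, among those lower on these same arrays. Its p and rank here are therefore not a separate finding.

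The dimmer CCN2 probe (ILMN_2115125) read 234.1, 264.0, 206.3 and 194.6 units in CD10-A375 and 756.9, 617.0, 734.7 and 606.0 units in mock-A375. Its groups did not overlap either, and its log2 fold change was -1.49 (SE 0.08, 95% interval -1.66 to -1.31), 2.80-fold lower, with an adjusted p of 1.07e-10 by limma. Both probes therefore gave the same direction, and they differed in size. The difference between the probes within an array was smaller by 0.42 log2 units in CD10-A375 (p = 0.0286, exact two-sided permutation test over arrays, adjusted p = 0.0429 over 3 such differences). With 4 arrays against 4, 0.0286 is the smallest p this test can give, and the 3 differences were chosen after the values were seen.

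**Figure D2:**
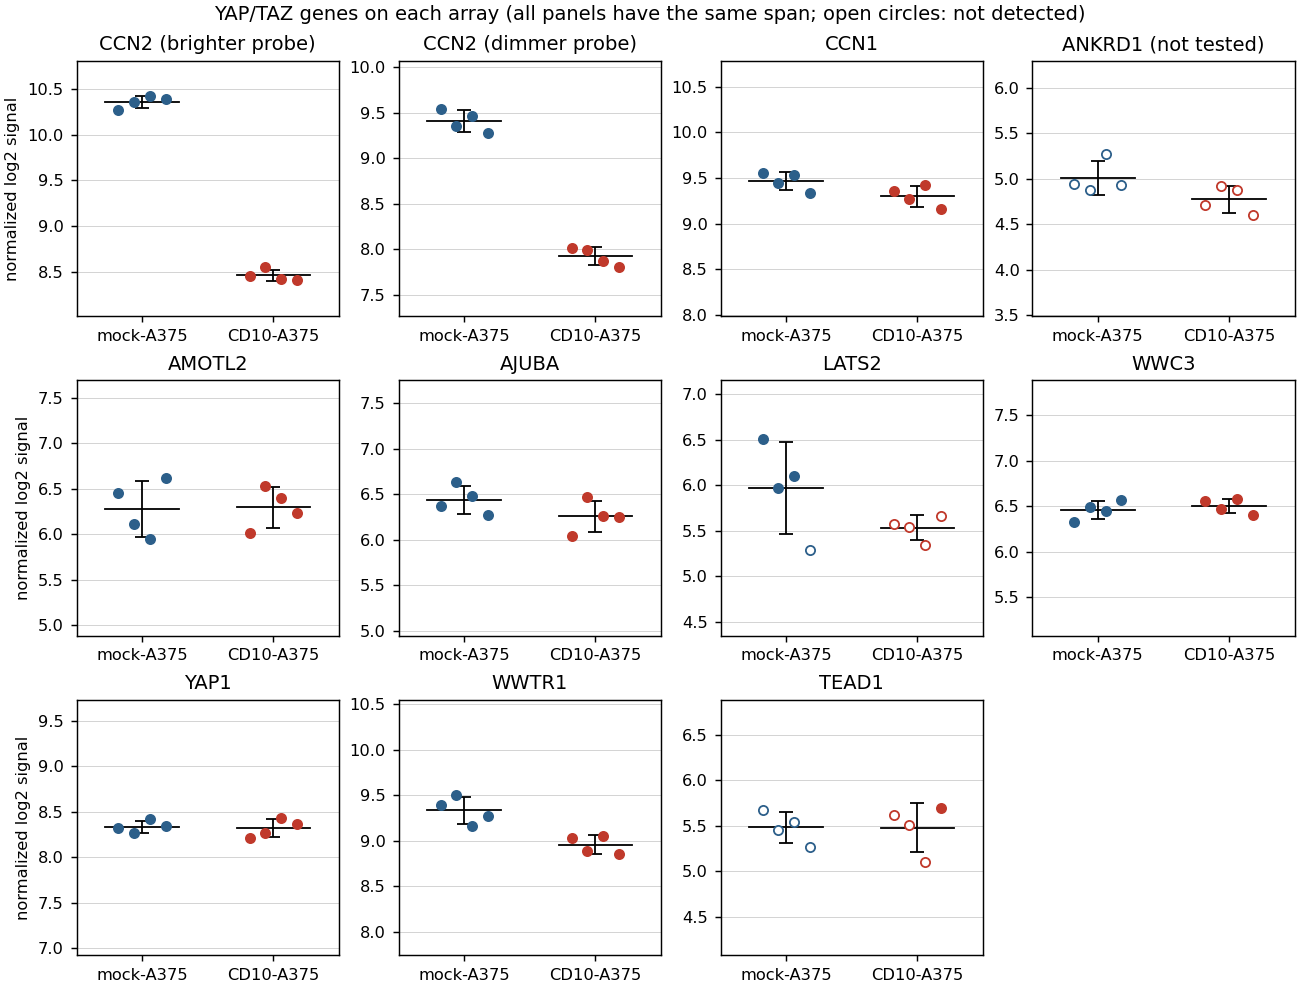
Normalized log2 level of each member's tested probe on each array, with CD10-A375 and mock-A375 side by side, points for arrays (open where the probe was not detected) and bars for group means ± SD (n = 4), except that ANKRD1, which was not tested, is shown by its untested probe. CCN2 and WWTR1 are the genes whose groups differed past the threshold, at 8.46 against 10.36 and 8.96 against 9.34.

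CCN1 (also CYR61), the close relative of CCN2 and the other secreted target most often read with it, was nearly level. Its probe read 610.0, 672.4, 623.6 and 517.4 units in CD10-A375 and 760.9, 658.3, 774.4 and 630.9 units in mock-A375. The ranges overlapped. The log2 fold change was -0.17 (SE 0.08, 95% interval -0.33 to 0.002), and the adjusted p of 0.115 missed the threshold. The difference of CCN2 from CCN1, taken within each array, moved by -1.74 log2 units (SE 0.10) from mock-A375 to CD10-A375. It did not overlap between the groups (p = 0.0286, exact permutation test, adjusted p = 0.0429 over the 3 differences). On these arrays the change at CCN2 was larger than that at CCN1. This pair was chosen after the values were seen, and its p is the smallest the test can give. The p is therefore not separate support for the difference.

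ANKRD1, a nuclear and sarcomeric protein and another standard target gene, was not detected on any of the 8 arrays. Its signals were -1.1, 9.2, 6.6 and -6.7 units in CD10-A375 and 9.7, 7.0, 21.9 and 10.2 units in mock-A375, and its lowest detection p was 0.0558. It was not tested, and these signals set no order between the groups.

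Of the 10 genes, 9 had a probe past the detection filter, and 10 of the 14 probes were tested. CCN2 and WWTR1 were called at an adjusted p under 0.05 by limma, both lower in CD10-A375, and 0 genes were called higher, a count that was also 0 at an unadjusted p under 0.05 and with the SAM test. These 2 of 9 genes make 22.2%, against 41.8% of all 11303 genes tested by their brightest probe (19.9% higher and 21.9% lower). By probes the count was 3 of 10, against 36.6% of all tested probes (17.3% higher and 19.3% lower). The same 3 probes were those whose groups did not overlap, against 34.6% of all tested probes. At the thresholds of the study's methods, an unadjusted p under 0.01 with a fold above 2 or below 0.5, both CCN2 probes were called and no other member probe was, against 4.96% of all tested probes. The filter left out ANKRD1, and it passed LATS2 through mock-A375 arrays alone and TEAD1 through a single CD10-A375 array. The median log2 fold change of the 9 genes was -0.17, and that of all tested genes was -0.03.

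**Figure D3:**
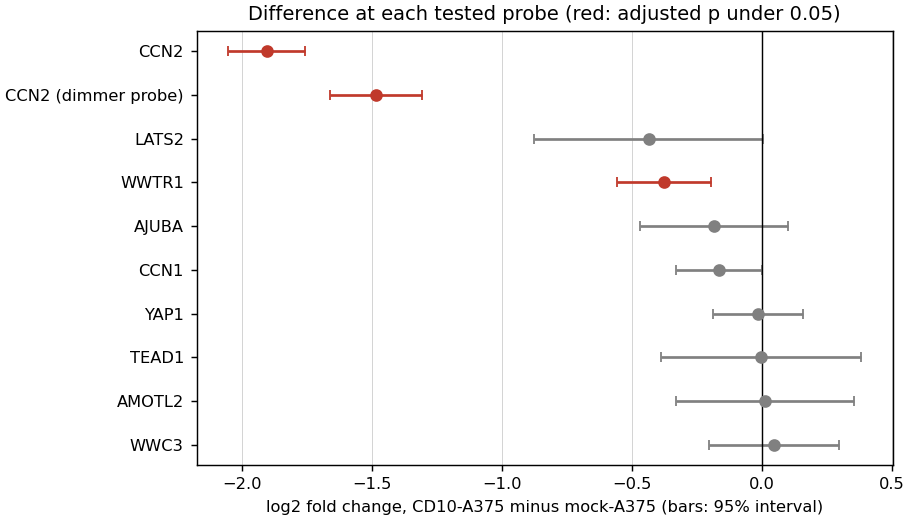
Log2 fold change (CD10-A375 minus mock-A375) at each of the 10 tested member probes, with 95% intervals and red for an adjusted p under 0.05. Both CCN2 probes (-1.91 and -1.49) stand far to the left of zero, WWTR1 is at -0.38, and the intervals of the other 7 probes include zero.

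The effectors themselves differed from each other in their result. WWTR1, which encodes TAZ, read 490.9, 513.2, 486.3 and 416.9 units in CD10-A375 and 685.5, 683.3, 594.4 and 602.5 units in mock-A375. The groups did not overlap, which was also true of 40.0% of all tested genes. The log2 level was 8.96 ± 0.10 (SD, n = 4) against 9.34 ± 0.15 (SD, n = 4), a log2 fold change of -0.38 (SE 0.09, 95% interval -0.56 to -0.20) or 1.30-fold lower, with an adjusted p of 0.00194 by limma. WWTR1 stood in place 1691 of decreases among the 11303 genes. The call was lost with the SAM test, in which the adjusted p was 0.146.

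YAP1, the other co-activator, had log2 levels of 8.21, 8.27, 8.43 and 8.37 in CD10-A375 and 8.32, 8.26, 8.42 and 8.35 in mock-A375. The groups overlapped fully, with a log2 fold change of -0.01 (95% interval -0.19 to 0.16) and an adjusted p of 0.912 by limma. The within-array difference of WWTR1 from YAP1 changed by -0.36 log2 units (SE 0.13) in CD10-A375, with p = 0.0571 by the exact permutation test (also 0.0571 after adjustment), so unequal change of the 2 co-activators did not pass the threshold.

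TEAD1, the DNA-binding partner, was close to the detection limit. Its tested probe was detected on 1 CD10-A375 array (replicate 4) and on 0 mock-A375 arrays, and its other probe on none. Log2 levels were 5.62, 5.51, 5.10 and 5.70 in CD10-A375 and 5.68, 5.45, 5.54 and 5.27 in mock-A375, with an interval of the difference of -0.39 to 0.38 and an adjusted p of 0.993. A change of TEAD1 within these bounds was not detectable at this signal.

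**Figure D4:**
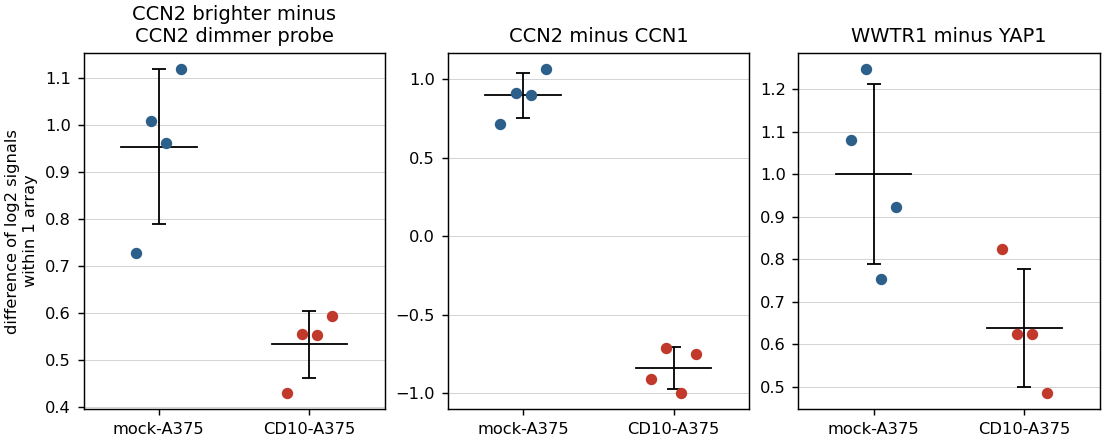
Differences between probes taken within each array, in log2 units, for CCN2 brighter minus dimmer probe, CCN2 minus CCN1 and WWTR1 minus YAP1, with points for arrays and bars for group means ± SD (n = 4). CCN2 minus CCN1 is separate between the groups (-0.84 against 0.90), while WWTR1 minus YAP1 overlaps (0.64 against 1.00), and only the shift between groups can be read because different probes have different brightness.

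The remaining members are feedback genes and regulators of LATS kinases. LATS2, a kinase that inhibits YAP and TAZ and is itself a target gene, had log2 levels of 5.58, 5.55, 5.34 and 5.67 in CD10-A375 and 6.51, 5.97, 6.10 and 5.29 in mock-A375. It was detected on 0 CD10-A375 arrays and on 3 mock-A375 arrays, and mock-A375 replicate 4 lay below all CD10-A375 arrays. The log2 fold change was -0.44 (SE 0.21, 95% interval -0.88 to 0.006) with an adjusted p of 0.116 by limma. No CD10-A375 array was above background, so the fitted difference is not a measured fold. LATS2 was not called. With each array left out in turn, its adjusted p ran from 0.00843 (without mock-A375 replicate 4) to 0.377.

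AMOTL2, an angiomotin family protein that binds YAP and is a target gene, had log2 levels of 6.02, 6.53, 6.40 and 6.24 in CD10-A375 and 6.46, 6.11, 5.95 and 6.62 in mock-A375, a difference of 0.01 (95% interval -0.33 to 0.36, adjusted p = 0.96 by limma). AJUBA, a LIM-domain protein that restrains LATS kinases, had log2 levels of 6.05, 6.47, 6.26 and 6.25 in CD10-A375 and 6.37, 6.63, 6.48 and 6.27 in mock-A375. Its difference of -0.18 (95% interval -0.47 to 0.10) had an adjusted p of 0.315, and its other 2 probes were not detected on any array. WWC3, a scaffold protein of the WWC family that promotes LATS activity, had log2 levels of 6.56, 6.47, 6.58 and 6.41 in CD10-A375 and 6.32, 6.49, 6.45 and 6.57 in mock-A375, with a difference of 0.05 (95% interval -0.20 to 0.30, adjusted p = 0.795). In all 3 genes the groups overlapped, and a change inside the stated intervals was not detectable.

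Whether other YAP/TAZ targets moved with CCN2 was read from a list of 22 target genes, which includes 5 of the members. Of its 18 tested genes, CD10-A375 had 5 at a higher level, 6 at a lower level and 7 not called, so 61.1% were called against 41.8% of all tested genes. Without the members, 14 genes remained, of which 5 were higher and 5 lower, with a median log2 fold change of -0.15. ANKRD1, CCDC80, ARHGEF17 and TGFB2 were not detected on any array. The list therefore held called genes in both directions. IGFBP3, which encodes an insulin-like growth factor carrier, had the largest difference, at 4.61 log2 units higher (adjusted p = 4.85e-18 by limma), and the study had chosen it on these arrays. DOCK5, an activator of Rac, was higher by 0.97 log2 units. RBMS3, whose product binds RNA, had a log2 fold change of -1.26 (adjusted p = 2.5e-08).

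**Figure D5:**
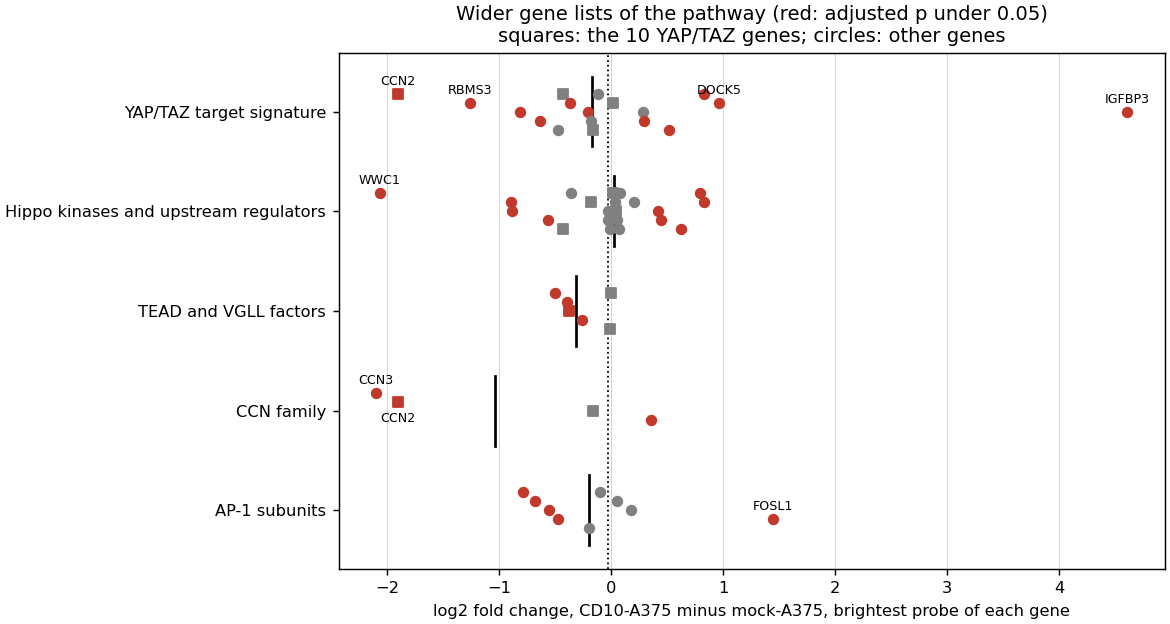
Log2 fold change (CD10-A375 minus mock-A375, brightest probe) of every tested gene in 5 lists of the pathway, with red for an adjusted p under 0.05, squares for the 10 YAP/TAZ genes, short black bars for list medians and a dotted line for the median of all tested genes (-0.03). Called genes lie on both sides in the target signature (5 higher, 6 lower) and in the Hippo list (5 higher, 4 lower), and on the lower side only in the TEAD and VGLL list (4 lower).

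Upstream of YAP and TAZ, 28 of 31 listed Hippo kinases and regulators had a probe and 22 were tested. Of these, 5 were higher, 4 lower and 13 not called (40.9% called, close to the 41.8% of all genes), with a median of 0.02. LATS1 was not detected on any array. The scaffold WWC1 (KIBRA), a paralog of WWC3, had log2 levels of 5.52, 5.66, 5.48 and 5.78 in CD10-A375 and 7.76, 7.59, 7.69 and 7.68 in mock-A375. It was detected on 2 CD10-A375 arrays and on all 4 mock-A375 arrays, and its log2 fold change was -2.07 (adjusted p = 8.91e-11 by limma). Since it was near background in CD10-A375, this size depended on the processing and ran from -2.54 (average normalization with a floor, no offset) to -1.53 (offset of 50).

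In the core kinase module, STK3, STK4 and SAV1 were lower, while LATS2 and MOB1B were not called. MOB1A, a co-activator of LATS kinases, was not called at its brighter probe (-0.03) and was called higher at its dimmer one (0.41). STK3, a Hippo kinase, had a log2 fold change of -0.89 (adjusted p = 9.44e-08), and its scaffold SAV1 had one of -0.88 (adjusted p = 2.98e-05). STK4, the paralog of STK3, was named after its values were seen, and its log2 fold change was -0.57 (adjusted p = 8.81e-07). PTPN14, a phosphatase that holds YAP in the cytoplasm and is also in the target list, was higher by 0.83 (adjusted p = 1.93e-06). AMOT, a relative of AMOTL2 that binds YAP, was also named after its values were seen and was higher by 0.79 (adjusted p = 1.84e-07). The remaining called regulators were also higher, namely FRMD6 by 0.42 (adjusted p = 2.75e-04), MAP4K1 by 0.62 (0.00572) and MAP4K4 by 0.44 (0.0182), each by limma. MAP4K1 was detected on 4 CD10-A375 and 0 mock-A375 arrays, so its value is not a measured fold. A dimmer MAP4K4 probe was not called (0.32, adjusted p = 0.15). The called regulators thus included inhibitors of YAP and TAZ in both directions.

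A list of 10 genes joined YAP1 and WWTR1 with the TEAD factors and the VGLL co-factors, which bind TEAD proteins. Of its 6 tested genes 4 were lower, 0 higher and 2 not called, so 66.7% were called against 41.8% of all tested genes. TEAD2 had a log2 fold change of -0.40 (adjusted p = 4.46e-04), TEAD4 of -0.26 (adjusted p = 0.00842) and VGLL4 of -0.50 (adjusted p = 4.93e-05), each by limma. A dimmer TEAD4 probe was not called (-0.28, adjusted p = 0.126). With the SAM test the list had 0 calls, and the adjusted p was 0.125 for TEAD2, 0.267 for TEAD4 and 0.0671 for VGLL4. By limma, these 3 and WWTR1 were the 4 genes called in this list, and the tested genes that were not called were TEAD1 and YAP1. TEAD3, VGLL1, VGLL2 and VGLL3 were not detected on any array.

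In the CCN family, 4 of 6 genes were tested, and CCN1 and CCN2 among them are members. Of these, 2 were lower, 1 higher and 1 not called. The share called was 75%, against 41.8% of all tested genes (19.9% higher and 21.9% lower), and it rests on 4 genes. CCN3 (NOV), a secreted relative of CCN2, was detected on all 4 mock-A375 arrays and on 0 CD10-A375 arrays, and it passed the filter through mock-A375 alone. Its level was at least 2.51-fold lower in CD10-A375. Its adjusted p of 1.48e-09 by limma belongs to the fitted difference and does not test this bound. The bound sets the mock-A375 mean against, on each CD10-A375 array, the lowest signal among detected probes or the probe's own signal, whichever was higher. CCN6 was higher by 0.36 log2 units at its brighter probe (adjusted p = 0.015 by limma). Its dimmer probe, detected on 3 CD10-A375 and 0 mock-A375 arrays, was not called (0.37, adjusted p = 0.12). CCN4 and CCN5 were not detected on any array. The family therefore held genes lower (CCN2, CCN3), higher (CCN6) and not called (CCN1).

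AP-1 factors often share binding regions with TEAD proteins, and 9 of 10 listed subunits were tested, of which 1 was higher, 4 lower and 4 not called (55.6% called, against 41.8% of all tested genes). The lower calls numbered 2 with the SAM test, in which FOSB had an adjusted p of 0.0638, and 0 at the thresholds of the study's methods. FOSL1 was the higher one, with a log2 fold change of 1.44 (adjusted p = 6.27e-10 by limma). ATF3 had a log2 fold change of -0.79 (adjusted p = 3.78e-04), BATF3 of -0.68 (adjusted p = 1.58e-04) and FOSB of -0.56 (adjusted p = 3.46e-04).

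CCN2 is made at high levels by fibroblasts, so fibroblast markers are given beside it. Of 10 markers, 3 were detected on any array, namely LUM, COL1A2 and PDGFRB, and COL1A1, COL3A1, COL6A3, DCN, PDGFRA, FAP and THY1 were not. The summed signal of the 10 was 183.8 to 198.2 units in CD10-A375 and 261 to 291.5 units in mock-A375, lower in CD10-A375 on every array. LUM was detected on 2 mock-A375 arrays and COL1A2 on 1, and neither was above background on any CD10-A375 array. Both were called lower in CD10-A375 (adjusted p = 0.00384 for LUM and 0.00354 for COL1A2 by limma), and their fitted differences are not measured folds. Thus 2 of the 3 tested markers were called, against 41.8% of all tested genes. PDGFRB was detected on all 8 arrays, its groups overlapped and it was not called (log2 fold change -0.12, adjusted p = 0.469 by limma). The part of these markers in the CCN2 result was not tested. Of the other cell types, 2 of 8 keratinocyte and epithelial markers, 0 of 6 endothelial markers and 2 of 5 leukocyte markers were detected on any array, and PTPRC, CD3E, PECAM1, KRT5 and EPCAM, which define these types, were not. The summed signal of the 5 leukocyte markers was 413 to 541 units in CD10-A375 and 171 to 219 units in mock-A375. The brighter probe of LYZ, which encodes lysozyme, was detected on all 8 arrays and had a log2 fold change of 1.67 (adjusted p = 1.52e-10 by limma). Its dimmer probe was detected on 2 CD10-A375 and 0 mock-A375 arrays and was not called (0.45, adjusted p = 0.129). CD14, also detected on all 8 arrays, was not called (0.14, adjusted p = 0.475). The 6 endothelial markers summed to 51.0 to 72.3 units in CD10-A375 and to at most 20.5 units in mock-A375. The part of these markers in the results was not tested either.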

How the data were processed

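RNA of CD10-A375 and mock-A375 cells, 4 cultures each, was hybridised to Illumina bead arrays. The authors deposited a background-subtracted intensity per probe that was not normalized between arrays, with a detection p-value, and the same intensity after average normalization in GenomeStudio (version 1 in the submitters' notes). The deposited average-normalized signals served for marker sums and alternatives only.

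Values were computed with limma 3.58.1 in R 4.3.3: normexp background from the detection p-values, an offset of 16, quantile normalization and log2. The filter kept 19550 of 47322 probes, each reaching a detection p of 0.01 on 1 array or more. These were tested two-sided with lmFit and eBayes (intensity trend), p-values were adjusted by Benjamini and Hochberg's method across all of them, and the threshold was 0.05. Fold changes are on the log2 scale with this offset and understate those of dim probes. The number of arrays limits the precision. The limma and SAM tests were tried on simulated log2 values with known changes. These were made after background correction, normalization and filtering, so those earlier steps were not tested.

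Symbols came from the platform annotation and RefSeq (30113 probes with 1 symbol, 8 with several, 17201 with none). A gene was represented by its probe with the highest mean among those tested. Levels of different probes were set against each other only as within-array differences, of which only the shift between groups was read. In lists, up to 4 called genes with the largest change were named, with every called gene of the CCN, TEAD and VGLL, and Hippo lists. Members and lists were chosen with earlier results of these data known. Alternatives were other background, normalization, offset, filter and trend settings, the SAM test (rewritten here), the methods' values and thresholds, a replicate block and leaving out each array.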

Additional observations from a re-analysis of the deposited data

Results flagged for a closer look

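The levels of 28 of the probes named in the text were checked for a single distant array within each group, 56 groups in all, and 2 stood out. Chance gives about 1 in 20 groups. PTPN14 on CD10-A375 replicate 2 had a log2 level of 9.51, against 9.88 to 9.92 on the other CD10-A375 arrays. CCN6 on CD10-A375 replicate 3 had a log2 level of 7.03, against 7.25 to 7.28 on the other CD10-A375 arrays. No member probe had such an array.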

How the results depend on the processing

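CCN2 stayed lower and past the threshold under all 22 alternatives, with log2 fold changes from -1.99 to -1.70 (-1.94 to -1.88 with each array left out). WWTR1 stayed lower, from -0.43 to -0.32, and lost its call with SAM (adjusted p = 0.146), with SAM on the methods' values (0.0637) and at the thresholds of the methods (unadjusted p of 0.01, fold of 2). Member probes called lower numbered 2 to 4 over all alternatives (3 to 4 with an array left out), and 0 were called higher under any. The number of probes called fell from 7162 (3386 higher, 3776 lower) to 2797 (1496 and 1301) with SAM, 1494 (820 and 674) with SAM on the methods' values and thresholds, and 969 (575 and 394) at those thresholds with limma, where 59.3% of calls were higher against 47.3%. Called genes of the lists, members aside, numbered 11 higher and 17 lower, and 6 and 10, 4 and 6, and 2 and 3 under those settings in turn. Over all 11303 genes tested by their brightest probe, the main setting called 2244 higher (19.9%) and 2477 lower (21.9%), so lower calls were also the more frequent there. With an array left out, 6393 to 6946 probes were called, 3023 to 3235 higher and 3370 to 3711 lower. Small uncalled differences changed sign: AMOTL2 was -0.00286 without normalization (-0.098 to 0.124 with an array left out), TEAD1 was 0.00128 with an offset of 50 (-0.0746 to 0.125) and YAP1 ran from -0.0518 to 0.0218 with an array left out. The cause was not tested. CCN6 was not called without normalization (adjusted p = 0.0501), with SAM (0.16), with SAM on the methods' values (0.071) or at the methods' thresholds. Of 612 values of 28 named genes or probes under alternatives, 566 kept direction and side of the threshold, 33 lost a call, 1 gained one and 12 changed sign.

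Replicate numbers did not pair the arrays: deviations from group means of same-numbered arrays correlated at -0.189 to 0.0315. With the replicate number as a block, 6635 probes were called (3152 higher, 3483 lower), 3 member probes lower and 0 higher, 11 list genes higher and 16 lower, and CCN2 had an adjusted p of 8.52e-11. A chip block was not run, because the chip of each array is not given in the sources used here. LATS2 and TEAD1 had no value under the filter for detection on all arrays of a group.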

Other observations

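The genes whose levels followed CCN2 most closely over the 8 arrays, among 9020 genes detected on all of them, were PCDHB2, a protocadherin, VCX2, CIMIP2C, NOXO1, an organizer of NADPH oxidase, and VCX3A. Their correlations with the brighter CCN2 probe were 0.997 to 0.999 (Pearson's r). The arrays form 2 groups, so these values restate that each gene was lower in CD10-A375, by log2 fold changes of -3.55 (PCDHB2), -2.67 (VCX2), -0.82 (CIMIP2C), -4.75 (NOXO1) and -2.28 (VCX3A). Within groups, over deviations from the group means, the highest correlations were those of PIK3C2A (0.989), SLC25A3 (0.985), EEF2KMT (0.976), RPL32 (0.965) and ERMARD (0.965), and none of these genes was among the former 5. These values were picked as the highest of 11558 probes over 8 arrays, and chance alone can give high ones. They are a description, and shared variation with CCN2 was not tested.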
